A study of Mus musculus with 3 samples.

Results

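Macrophages of the metastatic lung were compared with macrophages grown from bone marrow in culture, gene by gene. The mTAMs were tumor-associated macrophages (TAMs) taken from the lungs of BALB/c mice that carried 4T1, a mammary carcinoma line of the same strain which seeds the lung from the fat pad. The mice were 5 to 6 weeks old when 4T1 cells were inoculated, and the lungs were collected 5 weeks later. The BMDM were bone marrow-derived macrophages of healthy mice. Another array held pTAMs, the TAMs of the primary tumor, and its value is given beside these as a further level. The TAMs were sorted for CD11b and F4/80, proteins of the macrophage surface that other myeloid cells carry as well, and no such sort is described for the BMDM. Each group was represented by 1 array, the labels do not say how many mice were pooled, and the growth factor and duration of the BMDM culture could not be found in the sources used here. The variation between animals could therefore not be estimated, and no difference could be tested. Tissue of origin, tumor, culture, enzymatic digestion and array differed together between the groups and cannot be told apart.

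The members were the genes whose RMA value, a normalized log2 intensity, exceeded a floor of 5.3 on the mTAM or the BMDM array, and 11945 of 18193 genes on the array met this rule. Where a gene had several probe sets, the one with the greatest average of the 3 arrays stood for it. The floor lies near the background, since 86 probe sets of olfactory, taste and vomeronasal receptor genes had 95% of their values at or below 5.56. The 6 genes just inside the rule had a higher value of 5.31, and the 69 genes just outside had 5.3. Both arrays exceeded the floor for 11089 genes, the mTAM array alone for 522 and the BMDM array alone for 334. The threshold for a call was a difference of 1 on the log2 scale (2-fold), taken as mTAMs minus BMDM. Of the compared genes, 1368 were higher in mTAMs (11.5%) and 1715 were lower (14.4%), whereas 8862 (74.2%) stayed within 2-fold. Values not above the floor were replaced by it for folds, which are then given as "at least". A gene that entered the comparison through the mTAM array alone was likely to be called higher. With values raised to the floor, 1264 genes were higher and 1657 lower.

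The differences were lopsided in size. With values raised to the floor, a difference of 8-fold or more was found for 303 genes on the higher side and 34 on the lower side, and one of 32-fold or more for 77 and 0. The 1368 higher genes had a median level of 6.58 in BMDM against 8.43 in pTAMs and 9.13 in mTAMs, and 367 of them were at or below the floor in BMDM. The 1715 lower genes had a median level of 8.79 in BMDM against 7.78 in pTAMs and 7.30 in mTAMs, and 143 of them were at or below the floor in mTAMs. The higher genes therefore often came from background, while the lower genes mostly stayed measurable on both arrays. Over all compared genes the median difference was -0.11 and the quartiles were -0.68 and 0.20. The balance of calls moved with the scaling. Cyclic loess normalization shifted the median to 0.02, and then 56.9% of the called genes were higher (1586 against 1199) in place of 44.4%. The medians of gene lists are therefore read beside the -0.11 of all genes.

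**Figure D1:**
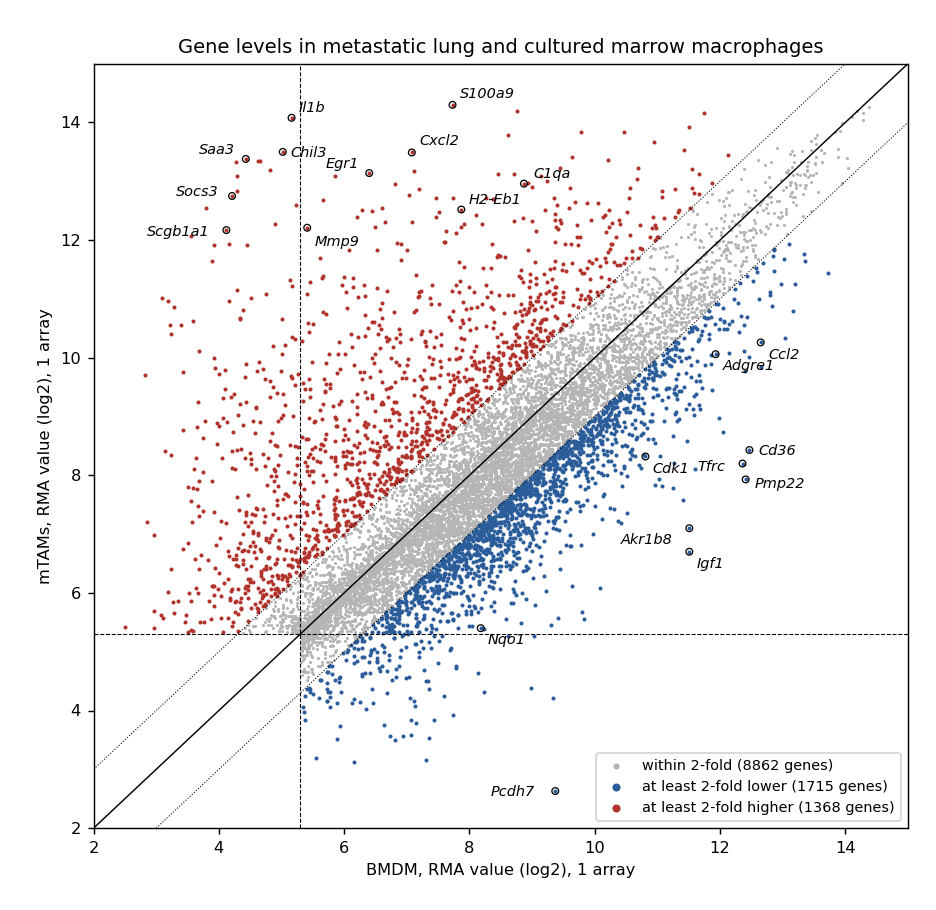
RMA values (log2) of 11945 genes in BMDM (horizontal axis) and mTAMs (vertical axis), 1 point per gene and 1 array per group, with the floor of 5.3 (dashed), equality (solid) and 2-fold differences (dotted). Red points (1368 genes) spread to differences of over 8 log2 units, as for *Il1b* (5.16 and 14.08), while blue points (1715 genes) stay closer to equality, with *Igf1* (11.51 and 6.70) among the farthest.

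Macrophages arise in tissues from embryonic precursors or from blood monocytes. In culture they are usually grown from marrow precursors with the growth factor M-CSF, under which they divide. They clear debris and dead cells through scavenger receptors, present antigen on MHC class II, and answer tissue injury through the transcription factor NF-κB, which induces IL-1, chemokines and its own inhibitors. Tumor-associated macrophages take up signals of the tumor, such as hypoxia, cytokines and lactate, and the lung holds alveolar macrophages, which clear surfactant lipid with the help of the nuclear receptor PPARγ.

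Several groups of genes that differed together are known for short regulatory sequences upstream of their start, so the stretches are shown before the values. Sequences are those of RefSeq on GRCm38.p6, 5′ to 3′ on the strand of the gene, and each covers the 120 bases before the annotated start. In the chemokine genes *Cxcl1* (chr5:90891125-90891244, plus strand), *Cxcl2* (chr5:90903779-90903898, plus strand) and *Cxcl3* (chr5:90785981-90786100, plus strand), and in *Nfkbia* (chr12:55492648-55492767, minus strand), which encodes an NF-κB inhibitor, capitals mark matches to the κB site, the sequence NF-κB binds. These genes were chosen because all were higher in mTAMs.
*Cxcl1*: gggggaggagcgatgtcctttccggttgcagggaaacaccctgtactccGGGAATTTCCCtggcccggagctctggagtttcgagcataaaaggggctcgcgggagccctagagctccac
*Cxcl2*: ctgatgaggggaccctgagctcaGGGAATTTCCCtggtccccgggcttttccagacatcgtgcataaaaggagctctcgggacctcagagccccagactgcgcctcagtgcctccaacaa
*Cxcl3*: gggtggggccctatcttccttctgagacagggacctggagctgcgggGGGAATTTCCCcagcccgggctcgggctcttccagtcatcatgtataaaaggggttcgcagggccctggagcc
*Nfkbia*: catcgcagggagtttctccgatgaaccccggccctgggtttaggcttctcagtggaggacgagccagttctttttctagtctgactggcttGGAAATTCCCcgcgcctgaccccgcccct

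The 3 chemokine genes shared the same 11 bases, GGGAATTTCCC, which 14 of 32851 promoter windows in the table held (0.0426%). A window covers 250 bases before to 50 after the start, and 9669 of the 11945 compared genes had at least 1. The κB site was found on either strand in 55.0% of 20 windows of NF-κB subunits and feedback genes, in 4 of 10 of CXC chemokines, and in 28.6% of 14 of acute phase and antimicrobial genes, against 8.46% of all windows. A match describes the letters and does not show that a factor binds there.

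The heat shock genes *Hspa1a* (chr17:34972157-34972276, minus strand) and *Hspa1b* (chr17:34959239-34959358, minus strand) encode near-identical forms of the chaperone HSP70. Their upstream stretches are shown because both stood among the 40 largest positive differences, and capitals mark the heat shock element core GAANNTTC.
*Hspa1a*: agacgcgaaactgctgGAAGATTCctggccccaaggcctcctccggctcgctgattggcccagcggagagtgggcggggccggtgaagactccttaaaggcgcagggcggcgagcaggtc
*Hspa1b*: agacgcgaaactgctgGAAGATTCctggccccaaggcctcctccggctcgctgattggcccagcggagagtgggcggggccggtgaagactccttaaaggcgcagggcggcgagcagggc

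Between these, 119 of 120 bases were identical, and 247 of 250 over the whole upstream window. As the genes are near-copies, their probe sets may not tell them apart. The core was found in 54.5% of 22 windows of heat shock and co-chaperone genes and in 7.86% of all windows.

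The mitotic genes *Cdk1* (chr10:69352913-69353032, minus strand), *Top2a* (chr11:99024190-99024309, minus strand) and *Cdc20* (chr4:118437344-118437463, minus strand) are shown as examples of genes lower in mTAMs. Capitals mark the cell cycle genes homology region TTTGAA, bound by the complex that switches mitotic genes, and the CCAAT box, each on either strand.
*Cdk1*: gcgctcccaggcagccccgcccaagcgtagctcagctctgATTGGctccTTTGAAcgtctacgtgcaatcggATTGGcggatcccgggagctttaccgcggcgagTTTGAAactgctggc
*Top2a*: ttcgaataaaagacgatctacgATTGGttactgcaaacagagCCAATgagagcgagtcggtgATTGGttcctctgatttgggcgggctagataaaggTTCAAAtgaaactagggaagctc
*Cdc20*: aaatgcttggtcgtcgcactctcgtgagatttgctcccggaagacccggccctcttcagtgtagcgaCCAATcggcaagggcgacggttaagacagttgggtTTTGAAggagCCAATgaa

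Of 23 windows of mitosis genes, 73.9% held TTTGAA and 82.6% held CCAAT, against 17.9% and 37.4% of all windows. The same pentamer read on the other strand, ATTGG, is the Y box of MHC class II promoters. It is in capitals in *H2-Aa* (chr17:34287824-34287943, minus strand) and *H2-Eb1* (chr17:34305747-34305866, plus strand), which encode the α chain of I-A and the β chain of I-E.
*H2-Aa*: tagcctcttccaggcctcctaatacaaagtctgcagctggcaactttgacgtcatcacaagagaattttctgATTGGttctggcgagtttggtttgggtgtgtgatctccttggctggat
*H2-Eb1*: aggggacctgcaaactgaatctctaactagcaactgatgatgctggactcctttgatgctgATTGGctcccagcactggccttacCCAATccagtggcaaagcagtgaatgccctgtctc

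It was present in 83.3% of 6 windows of MHC class II genes. The other motifs searched were the hypoxia response element core ACGTG (56.0% of 25 windows of hypoxia genes, 19.6% of all), the E2F site core TTCCCGCC (17.2% of 29 of DNA replication genes, 2.19%), the CArG box (19.2% of 26 of immediate early genes, 1.63%) and the cAMP response element TGACGTCA (7.69% of the same 26, 1.79%). The windows with a CArG box belonged to only 2 of 17 genes, *Zfp36* and *Egr2*, the latter with several annotated starts that each count as a window. The antioxidant response element core TGACNNNGC was in 28.6% of 21 windows of NRF2 target genes (12.4% of all), the sterol response element TCACNCCAC in 4.55% of 22 of sterol genes (1.24%), and the E box CACGTG, which contains ACGTG, in 30.6% of 36 of lysosomal genes (7.15%).

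The identity of the sorted cells was checked with markers. All 15 general macrophage markers exceeded the floor on all 3 arrays, and their median difference was -0.13. *Csf1r*, the receptor for M-CSF, was 13.35 in BMDM and 12.89 in mTAMs, and *Cd68*, a lysosomal glycoprotein gene, was 13.07 and 12.10. *Adgre1*, which encodes F4/80, was the only marker of the list lower in mTAMs, at 11.93 in BMDM, 10 in pTAMs and 10.06 in mTAMs (3.66-fold). The higher ones were *Itgam*, which encodes CD11b (10.46, 11.90 and 11.61, 2.22-fold), *Aif1*, *Ptprc* and *Mertk*. Both arrays thus held transcripts of these markers. Other myeloid cells carry some of them, such as CD11b and F4/80, so they do not show that all cells were macrophages. Alveolar macrophage markers exceeded the floor for all 17 genes in mTAMs, 12 in pTAMs and 6 in BMDM, so many were also present in macrophages of the primary tumor. Of 17 alveolar macrophage markers, 14 were higher and none was lower (median 2.53), or 13 with values raised to the floor (median 1.69). *Siglecf*, a sialic acid-binding receptor of alveolar macrophages and eosinophils, was 4.13 in BMDM, 4.57 in pTAMs and 8.91 in mTAMs. *Car4*, which encodes a membrane carbonic anhydrase, was 3.43, 7.07 and 9.76. *Atp6v0d2*, a proton pump subunit gene, was 7.88, 6.16 and 10.64 (6.77-fold). In *Pparg*, which encodes the regulator of the alveolar program, the arrays of BMDM (8.01) and mTAMs (7.75) were within 2-fold, with 5.55 in pTAMs, and *Fabp4*, a fatty acid carrier gene, was 8.21 in BMDM, 6.15 in pTAMs and 7.87 in mTAMs.

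Monocyte markers were also higher, 9 of 12 with none lower (median 2.24). *Fn1*, which encodes fibronectin, was 5.67 in BMDM, 13.56 in pTAMs and 12.69 in mTAMs (130-fold, with a difference of 5.06 from its other probe set in place of 7.02), and *Plac8* was 7.04, 12.76 and 12.76 (52.7-fold). Of the interstitial and other resident macrophage markers, 9 of 16 were higher and 3 lower. The higher included the C1q genes, and *Lyve1*, a hyaluronan receptor gene of perivascular macrophages (3.65, 7.48 and 7.76). The lower were *Stab1*, *Gas6* and *Folr2*, the last a folate receptor gene at 12.05 in BMDM, 9.33 in pTAMs and 8.73 in mTAMs (9.99-fold). The resident list thus split between genes higher in both TAM groups and genes higher in cultured macrophages.

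Markers of other cells were more abundant on the mTAM array as well. In bulk RNA more cells of a type and more RNA per cell cannot be told apart. All 22 neutrophil markers exceeded the floor in mTAMs, 21 did in pTAMs and 14 in BMDM, and their mean RMA value was 10.78, 9.05 and 5.83. Of them, 20 were higher and none lower than in BMDM, or 19 with values raised to the floor. *Csf3r*, the G-CSF receptor gene, was 6.28 in BMDM, 10.02 in pTAMs and 12.52 in mTAMs (75.6-fold), and *Cxcr2*, a chemokine receptor gene of neutrophils, was 5.14, 8.18 and 11.32. *Cd177*, a neutrophil surface protein gene, was 3.89, 8.52 and 11.64. Granule genes made in early granulocyte precursors were uneven: *Mpo* was 5.44, 6.32 and 8.98, while *Elane* was 5.42, 5.48 and 5.89. Lung epithelial markers exceeded the floor for 15 of 16 genes in mTAMs and 10 in each of the others, but some of these values lay near background. Of the 15 compared, 8 were higher than in BMDM and none lower. *Nkx2-1* was 5.56 on all 3 arrays, and *Lyz1* was high on each (14.38, 14.23 and 14.26). *Scgb1a1*, the secretoglobin of airway club cells, was 4.12 in BMDM, 4.21 in pTAMs and 12.17 in mTAMs (at least 117-fold). *Bpifa1*, an airway secretory protein gene, was 3.23, 2.95 and 8.34, whereas *Sftpb*, a surfactant gene of alveolar type II cells, was 5.82, 5.66 and 6.10. These airway secretory transcripts were thus near background in pTAMs and present in mTAMs.

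Fibroblast and matrix markers were higher for 9 of 17 compared genes with none lower, and their mean value was 5.26 in BMDM, 6.41 in pTAMs and 7.14 in mTAMs. *Dcn*, the proteoglycan decorin, was 5.32, 7.02 and 10.28 (31.1-fold), and *Col3a1*, a fibrillar collagen gene, was 4.75, 8.15 and 11.09, with a difference of 3.65 from its other probe set in place of 6.34. Epithelial and carcinoma markers were higher for 8 of 12 with none lower, or 6 with values raised to the floor. *Krt18*, a keratin gene, was 3.78 in BMDM, 9.77 in pTAMs and 8.92 in mTAMs, and *Epcam* was 6.38, 6.53 and 6.53, with a difference of 1.70 from its other probe set in place of 0.15. Of 11 mast cell and basophil markers, 7 could be compared, of which 5 were above the floor on the mTAM array alone, and 4 lay at or below it on both arrays. With values raised to the floor, 5 of the 7 were higher, among them *Mcpt8*, a basophil protease gene (4.66, 4.89 and 8.90), and *Kit* (4.00, 5.95 and 8.83). The 3 eosinophil markers compared were higher, with *Prg2*, the major basic protein, at 4.05, 3.66 and 8.30, while 4 others of the list were at or below the floor. *Prg2* and *Siglecf* entered the comparison through the mTAM array alone, so a call as higher was likely. *Siglecf* is an alveolar macrophage marker as well. Lymphocyte markers were scattered, with 2 of 8 compared T cell markers higher and 2 lower. *Cd3d* was 5.86, 6.03 and 8.31, but *Cd3e* was 6.49, 6.52 and 6.57. The lower ones were *Cd28* (7.78, 5.27 and 4.73) and *Il7r* (10.19, 10.08 and 8.82). Endothelial markers had a mean of 5.49 in BMDM and 5.47 in mTAMs. The part of these cells in the differences below was not tested. Leaving all such markers out changed the counts to 1294 higher and 1711 lower. As this took out only the listed markers and no other transcripts of those cells, it cannot show their part.

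**Figure D2:**
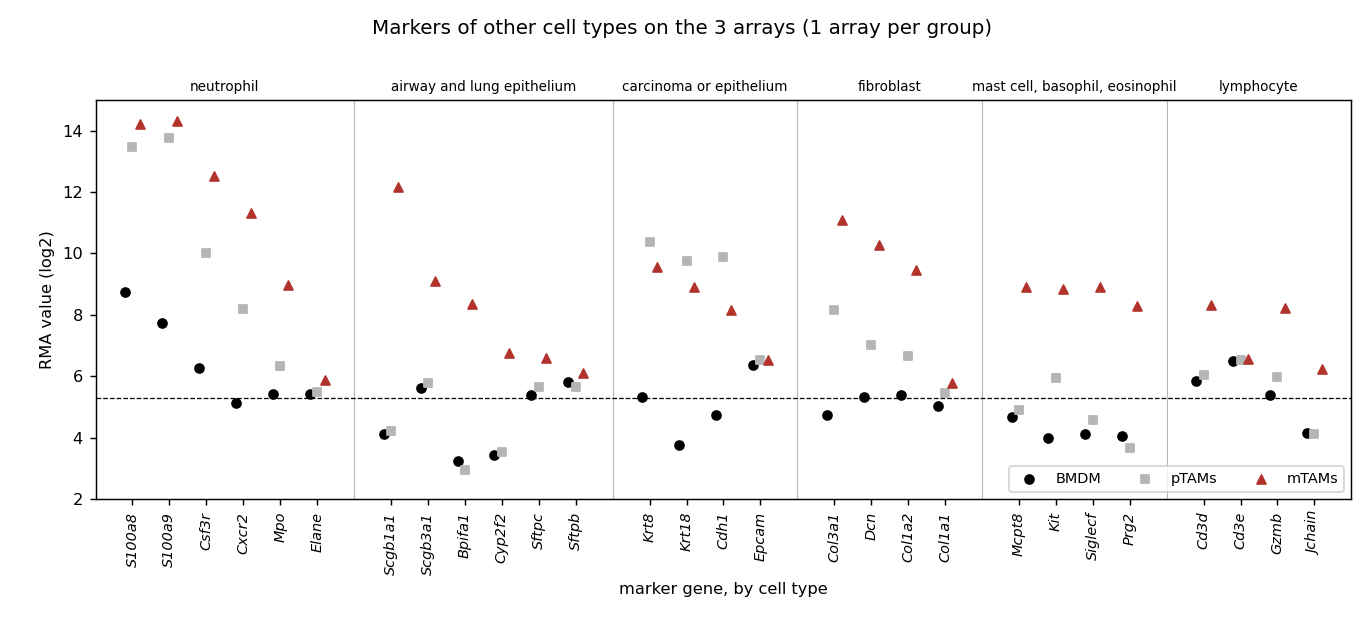
RMA values (log2, vertical axis) of selected markers of other cell types (horizontal axis) in BMDM (black circles), pTAMs (grey squares) and mTAMs (red triangles), 1 array each, and a dashed line at 5.3, the floor. The lower T cell markers *Cd28* and *Il7r* are not drawn. Other listed markers left out include *Epx*, *Ccr3*, *Fcer1a*, *Lum* and *Postn*, which were at or below the floor on each array. *Pdgfrb* and *Col4a2*, fibroblast and matrix markers with a negative difference within 2-fold, are not drawn either. *Scgb1a1* lies at 12.17 in mTAMs and below the floor on the other arrays, and *S100a9* at 13.75 in pTAMs and 14.30 in mTAMs against 7.73 in BMDM.

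Secreted proteins of acute inflammation were higher in mTAMs. Of 22 acute phase and antimicrobial genes, 17 could be compared and all of these were higher, with a median of 5.25, although 15 were when low values were set to the floor. Several of the 17, such as *Saa3*, *Hp* and *Steap4*, were below the floor in BMDM and entered the comparison through the mTAM array. That all 17 were higher was therefore partly set by the rule. *Saa3*, a serum amyloid gene of macrophages and other cells, was 4.43 in BMDM, 11.47 in pTAMs and 13.38 in mTAMs. *Hp*, which encodes the hemoglobin scavenger haptoglobin, was 4.82, 10.60 and 13.19 (at least 237-fold). *Steap4*, a metalloreductase gene, was 4.89, 8.93 and 12.28, with a difference of 4.92 from its other probe set. *Slpi*, a protease inhibitor gene, was 8.10, 11.60 and 12.42 (20-fold), and *Lbp*, which encodes the LPS-binding protein, was 5.69, 7.42 and 9.44 (13.5-fold). In each of these the order was BMDM, pTAMs, mTAMs. *Ltf*, *Camp* and *Ngp* of this list are neutrophil granule genes and stand in the neutrophil list too, as does *Lcn2*.

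Of 18 IL-1 family and inflammasome genes, 14 were higher and none lower (median 2.36), or 13 with values raised to the floor. The agonists *Il1b* (5.16 in BMDM, 13.30 in pTAMs and 14.08 in mTAMs), *Il1a* (5.17, 9.58 and 9.65, at least 20.4-fold) and *Il1f9*, which encodes IL-36γ (5.67, 8.64 and 11.39, 52.7-fold), were among them. So were the antagonists: *Il1r2*, the decoy receptor of IL-1, was 5.86, 11.88 and 13.09 (150-fold), *Il1rn*, the receptor antagonist, 9.03, 11.14 and 10.81 (3.43-fold), and *Il18bp*, which binds IL-18, 5.88, 8.38 and 8.83. *Il1r2* also stands in the neutrophil list. Sensors of the inflammasome, the complex that activates caspase 1, varied in size of difference. *Mefv*, which encodes the sensor pyrin, was 5.44, 9.95 and 10.44 (32-fold). *Nlrp3* was 8.90, 9.63 and 10.03 (2.19-fold), *Casp4*, which encodes a caspase that senses LPS inside the cell, was 8.34, 9.80 and 10.86, and *Casp1* (10.48, 9.68 and 9.77) and the adaptor gene *Pycard* (10.69, 11.23 and 10.03) were within 2-fold. The ligands named here and their inhibitors were higher together, while *Casp1* and *Pycard* did not pass 2-fold.

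Among 12 CXC chemokines, which attract neutrophils or lymphocytes, 10 were higher and 2 lower (median 2.08), or 9 and 2 with values raised to the floor. The neutrophil attractants *Cxcl1* (6.52, 10.74 and 11.83, 39.7-fold, with differences of 2.28 to 5.88 from its other probe sets in place of 5.31), *Cxcl2* (7.08, 12.96 and 13.49) and *Cxcl3* (3.18, 11.64 and 10.97, at least 50.9-fold) share the κB match shown above. *Cxcl13*, an attractant of B cells, was 5.66, 5.58 and 8.51 (7.21-fold), so that pTAMs resembled BMDM. The probe sets of *Cxcl9*, an interferon-γ-induced chemokine, disagreed, with differences of 7.16 and 0.96. The lower genes were *Pf4* (12.19, 12.40 and 10.62) and *Cxcl14* (9.33, 10.31 and 8.29), and the other probe set of *Cxcl14* gave -0.77. CC chemokines were mixed, with 6 of 13 higher and 2 lower (median 0.87). *Ccl8*, a monocyte attractant, was 5.90, 10.72 and 10.07 (18.0-fold), *Ccl12*, another, 8.45, 11.99 and 9.99, and *Ccl24*, an eosinophil attractant, 5.89, 12.10 and 9.74 (14.4-fold). Others that attract monocytes, *Ccl2* (12.65, 11.66 and 10.26, 5.24-fold) and *Ccl7* (10.78, 10.39 and 8.88, 3.73-fold) were lower in mTAMs, so monocyte attractants lay on both sides.

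Of 24 other cytokines and growth factors, 16 were higher and 3 lower (median 1.47). *Osm*, an IL-6 family cytokine, was 6.65 in BMDM, 11.39 in pTAMs and 12.30 in mTAMs (50.2-fold), *Il6* 3.22, 9.91 and 10.55, and *Csf1*, which encodes M-CSF, 6.14, 9.48 and 11.20 (33.4-fold, with differences of 1.70 to 3.62 from its other probe sets). *Thbs1*, the matrix protein thrombospondin 1, was 5.51, 12.01 and 10.57 (33.4-fold), and *Vegfa*, the angiogenic factor, 6.64, 9.56 and 8.05. *Tnf* was 8.37, 7.62 and 9.83 (2.75-fold), lowest in pTAMs. The lower genes were *Igf1* (11.51, 5.70 and 6.70, with differences of -4.91 to -4.29 from its other probe sets), *Pdgfb* (8.74, 7.55 and 7.27) and *Vegfb* (7.80, 7.09 and 6.55). *Ebi3* and *Il10* were within 2-fold, at 8.80 and 9.17 and at 5.99 and 6.97 in BMDM and mTAMs.

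**Figure D3:**
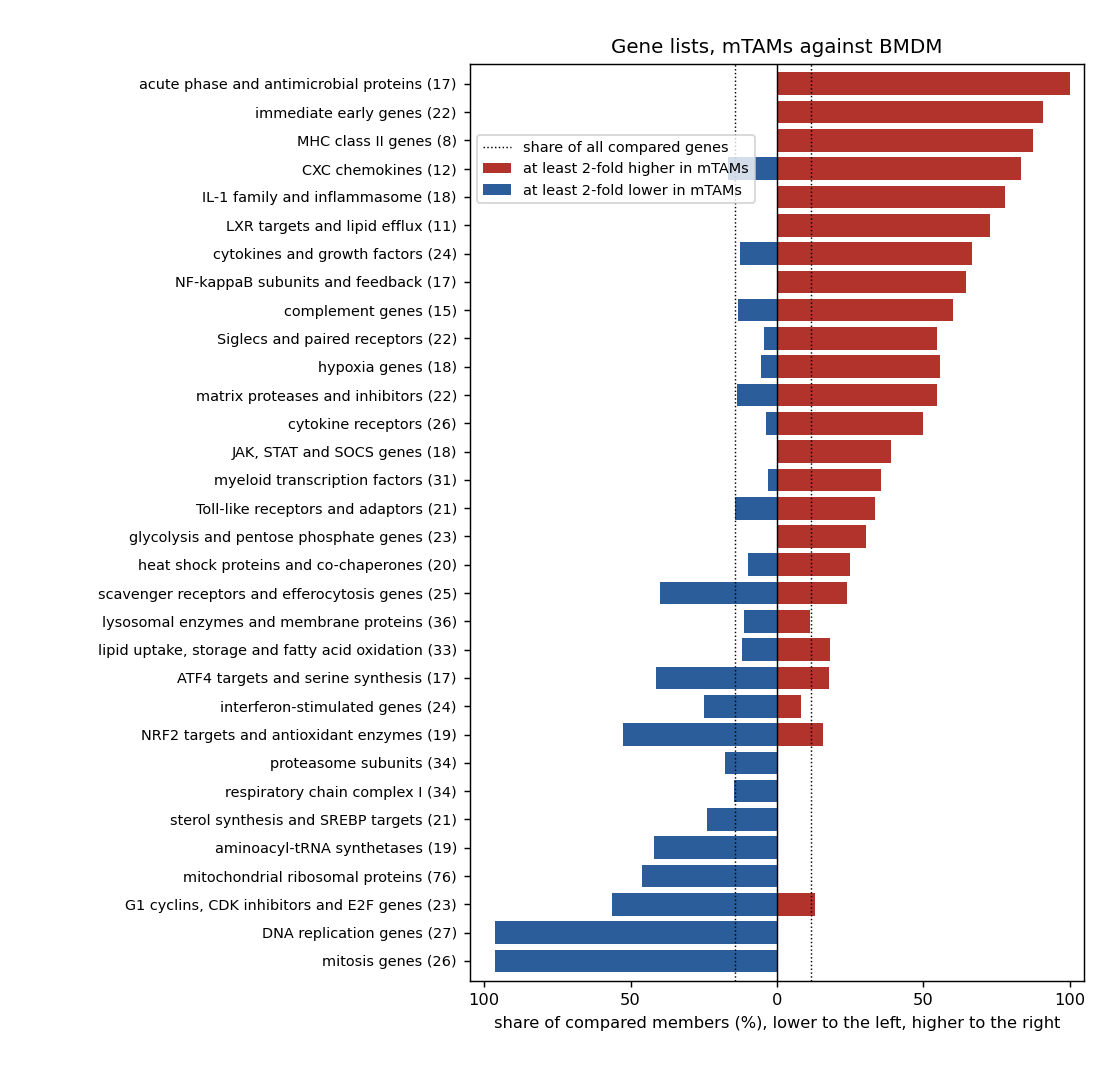
Share of compared members (horizontal axis, %) that passed 2-fold, higher in mTAMs (red, to the right) or lower (blue, to the left), for 32 gene lists, with the number compared in parentheses and the shares of all compared genes, 11.5% and 14.4%, as dotted lines. All 17 compared acute phase and antimicrobial genes are higher, but several of them entered the comparison through the mTAM array alone. In the other direction, 25 of 26 mitosis genes and 26 of 27 DNA replication genes are lower.

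Receptors for these signals were higher for part of each family. Among 14 chemoattractant receptors, 7 were higher and 1 lower (median 1.71). *Fpr2*, a receptor for formylated and acute phase peptides, was 8.45 in BMDM, 12.10 in pTAMs and 13.13 in mTAMs (25.6-fold), *Ccrl2*, which binds chemerin, 6.81, 11.79 and 12.96 (71.0-fold), and *Ccr1* 8.2, 12.03 and 12.28. *Ccr2*, the receptor for *Ccl2*, stayed within 2-fold (10.83, 12.27 and 11.34, with differences of 0.63 to 1.37 from its other probe sets), and *C3ar1*, the receptor for complement C3a, was lower (12.38, 11.37 and 10.12, 4.79-fold). Of 26 cytokine receptors, 13 were higher and 1 was lower (median 0.97). *Il4ra* (6.83, 9.76 and 9.92, 8.51-fold) and *Il13ra1* (5.00, 10.08 and 10.65) form the type II receptor for IL-4 and IL-13. Their other probe sets gave differences from 0.40 to 3.08 and from 0.64 to 5.93. The shared β chain of the GM-CSF receptor, *Csf2rb*, was 9.46, 11.96 and 12.29 (7.11-fold). The signal chains *Il6st* (8.45, 8.35 and 7.82) and *Ifnar1* (9.14, 8.98 and 8.98) were within 2-fold, but the other probe set of *Ifnar1* gave 2.88.

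Some Toll-like receptors were higher in mTAMs and a few were lower. *Tlr2*, the receptor for bacterial lipopeptides, was 8.93 in BMDM, 10.26 in pTAMs and 11.83 in mTAMs (7.46-fold), and its partners *Tlr1* (7.70, 9.63 and 10.64) and *Tlr6* (7.68, 8.63 and 9.98) were higher too. Of the receptors for RNA in endosomes, *Tlr7* (9.75, 8.37 and 8.71, with -0.52 and -0.25 from its other probe sets in place of -1.04) and *Tlr3* (7.96, 7.57 and 6.77) were lower, while *Tlr8* (7.84, 7.70 and 7.87) and *Tlr13* (11.31, 10.76 and 11.18) were within 2-fold, and *Tlr4*, the LPS receptor, was within 2-fold (9.97, 10.40 and 10.55). Over the 21 genes of the list, 7 were higher and 3 lower (median 0.17), the latter a share near the 14.4% of all genes. Among C-type lectins, 5 of 19 were higher and 1 lower. *Clec7a*, which encodes the β-glucan receptor Dectin-1, was 8.71, 12.77 and 13.13, and *Clec4n*, which encodes Dectin-2, 7.84, 12.13 and 11.63 (13.8-fold). Of 6 Fc receptor genes, *Fcgr4* (8.85, 12.32 and 12.37, 11.5-fold), *Fcgr2b*, the inhibitory member (9.20, 13.41 and 12.52, 9.99-fold), and *Fcgrt* were higher. Of 22 Siglecs and paired receptors, 12 were higher and 1 lower (median 1.70). *Trem1*, which amplifies inflammation, was 5.99, 10.22 and 11.37 (41.6-fold), while *Trem2*, a lipid receptor gene that restrains it, was the lower one (11.87, 9.95 and 9.45, 5.35-fold). *Trem1* is a neutrophil marker of the list above as well.

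Inside the cell, many genes of the NF-κB pathway were higher. Of 17 genes of the list, 11 were higher and none lower (median 2.12). The inhibitors *Nfkbia* (11.42 in BMDM, 12.79 in pTAMs and 13.54 in mTAMs, 4.35-fold), *Tnfaip3*, which encodes the ubiquitin editor A20 (7.62, 10.48 and 12.15, 23.1-fold), and *Nfkbiz*, a nuclear cofactor gene (6.60, 11.07 and 12.55, 61.8-fold), passed the threshold on every probe set above the floor. *Rela* (9.56, 9.58 and 9.90) and *Nfkb2* (7.37, 8.07 and 8.31) were within 2-fold, and *Rel* (6.11, 7.69 and 8.39) and *Relb* (6.62, 7.5 and 7.73) were higher. In the JAK-STAT list, 7 of 18 genes were higher and none lower (median 0.39). *Socs3*, the inhibitor of IL-6 signaling, was 4.21, 11.86 and 12.75, and *Stat3*, the STAT it restrains, 8.87, 10.43 and 10.83 (3.89-fold, with differences of 0.68 to 4.63 from its other probe sets). *Stat6*, which acts for IL-4, was 10.32, 10.42 and 10.67.

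Of 22 immediate early genes, which are transcribed within minutes of a stimulus, 20 were higher and none lower (median 3.42). *Egr1* was 6.40 in BMDM, 11.59 in pTAMs and 13.14 in mTAMs, *Junb* 7.47, 10.93 and 12.39 (30.3-fold), *Nr4a1* 7.09, 11.31 and 12.31 (37.3-fold), and *Zfp36*, which encodes an RNA-binding protein that destabilizes cytokine transcripts, 9.63, 12.59 and 13.42 (13.8-fold). *Myc* (9.30, 9.49 and 8.74) and *Fosl1* (6.28, 7.55 and 7.25) were the exceptions. MAP kinase phosphatases split evenly, with 5 of 18 higher and 5 lower. *Dusp1* (8.62, 12.85 and 13.78, 35.8-fold) and *Dusp5* (6.11, 9.71 and 10.40) were higher, and *Dusp4* (9.54, 8.24 and 6.82, 6.59-fold) and *Dusp7* (8.89, 7.76 and 7.06) lower. In the heat shock list the inducible HSP70 genes differed most. *Hspa1a* was 5.23, 12.14 and 12.59, and *Hspa1b* 7.12, 12.76 and 13.17. The constitutive *Hspa8* (13.15, 13.15 and 13.24) and *Hsp90aa1* (12.29, 12.18 and 12.45) were nearly equal on the arrays, although other probe sets of *Hspa8* gave 0 to 3.03, and mitochondrial *Hspa9* was lower (10.54, 9.89 and 9.30, with -1.51 to -0.38 from its other probe sets). In all, 5 of 20 were higher, the others being *Hspb1*, *Hspb8* (1.68, with 0.39 and 0.67 from its other probe sets) and *Dnajb1*, and 2 were lower (median -0.27), the latter a share under the 14.4% of all genes. TAMs were dissociated with enzymes at body temperature, a step the sources do not give for BMDM, and its part in these genes cannot be told apart from that of the tissue.

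Antigen presentation through class II was higher. Of 8 compared MHC class II genes, 7 were higher (median 3.31). *H2-Ab1* was 7.92 in BMDM, 12.71 in pTAMs and 12.28 in mTAMs (20.5-fold), *H2-Aa* 8.94, 13.35 and 12.97 (16.3-fold), and *Ciita*, the transactivator of these genes, 4.73, 7.88 and 7.31 (at least 4.03-fold). *H2-Eb2* had the same value of 5.97 on all arrays. The class I genes differed little, with *H2-K1* at 12.72, 13.23 and 13.27 and *B2m* at 13.51, 13.78 and 13.74, and 2 of 15 genes higher, or 5 after cyclic loess normalization. As a share, 2 of 15 is near the 11.5% of all genes. Of 20 costimulatory and checkpoint genes, 9 were higher and none lower. *Cd274*, which encodes PD-L1, was 6.58, 10.57 and 9.77 (9.13-fold), and *Cd86*, a costimulator of T cells, 5.70, 10.27 and 8.41 (6.54-fold). *Cd40* was 7.61, 8.47 and 7.85. The ectoenzyme gene *Entpd1*, which encodes CD39 and removes extracellular ATP, was 6.15, 9.79 and 9.87 (13.2-fold, with differences of 2.14 and 2.59 from its other probe sets in place of 3.72).

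Complement genes were higher for 9 of 15 and lower for 2 (median 2.07). The subunits of C1q, which starts the classical pathway, stood high in both TAM groups, with *C1qa* at 8.87 in BMDM, 13.28 in pTAMs and 12.96 in mTAMs (17.0-fold) and *C1qb* at 8.40, 13.06 and 12.70 (19.7-fold). *Cfb*, a protease gene of the alternative pathway, was 5.27, 9.26 and 9.73. *Serping1*, which encodes the C1 inhibitor, was 4.59, 5.23 and 8.10 (at least 6.96-fold), and *C1s1* 4.03, 4.44 and 7.22, so both were above the floor in mTAMs alone. The lower genes were *C3ar1* and *Cd59a*, which protects cells from lysis (8.16, 6.58 and 6.28).

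Lipid genes differed in both directions. Of 11 LXR targets and efflux genes, which export cholesterol, 8 were higher and none lower (median 1.73). *Abca1*, a cholesterol exporter gene, was 6.03 in BMDM, 11.56 in pTAMs and 11.12 in mTAMs (34.1-fold, with 3.10 and 3.24 in place of 5.09 from its other probe sets), *Abcg1* 8.2, 9.50 and 10.91 (6.54-fold) and *Apoc2*, a lipoprotein component gene, 6.66, 10.75 and 10.36 (13-fold). Of 33 genes of lipid uptake, storage and fatty acid oxidation, 6 were higher and 4 lower (median -0.21), or 5 and 4 with values raised to the floor. The share lower was under the 14.4% of all genes. The higher ones included the triglyceride synthesis genes *Dgat2* at 6.69, 8.08 and 10.29 (12.1-fold) and *Dgat1* at 7.43, 8.45 and 10.18 (6.73-fold), and the lipase gene *Pnpla2* at 8.29, 8.40 and 10.08 (3.46-fold). Among the lower ones, *Cd36*, a fatty acid translocase gene, was 12.47, 8.33 and 8.43, *Fabp3* 9.30, 5.14 and 5.46 (14.3-fold), and *Lpl*, which encodes lipoprotein lipase, 13.20, 7.55 and 11.26 (3.84-fold). No gene of sterol synthesis was higher and 5 of 21 were lower (median -0.71), among them *Sqle* (9.88, 8.97 and 8.34, 2.91-fold) and *Fdps* (10.32, 8.99 and 8.85, 2.77-fold). After cyclic loess normalization 3 were lower.

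Eicosanoid genes were higher for 9 of 19 and lower for 1. *Ptgs2*, which encodes cyclooxygenase 2, was 3.92, 11.48 and 11.92, and the lipoxygenase genes *Alox5* (7.53, 8 and 9.70) and *Alox15* (5.46, 8.74 and 9.46, 16-fold) were higher. *Alox15* is also an eosinophil marker. *Hpgds*, the hematopoietic prostaglandin D synthase, was lower (9.62, 7.48 and 6.80, 7.06-fold).

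In energy metabolism, some genes of glucose transport and its regulation were higher. Of 23 glycolysis and pentose phosphate genes, 7 were higher and none lower. These were 4 transporter genes (*Slc2a1*, *Slc2a3*, *Slc2a6* and *Slc16a3*), the hexokinase gene *Hk2*, and *Pfkfb3* and *Pfkfb4*, which set the activator of phosphofructokinase. *Slc2a3*, a glucose transporter gene, was 9 in BMDM, 10.34 in pTAMs and 12.33 in mTAMs (10.1-fold), *Slc2a6* 7.92, 8.25 and 10.32 (5.28-fold), and *Pfkfb3* 7.06, 10.17 and 10.32 (9.58-fold). Other enzymes of the chain were nearly equal, with *Ldha* at 12.64, 12.92 and 12.60 and *Pgk1* at 12.86, 13.06 and 12.46, so that the median was -0.07, and 0.19 after cyclic loess normalization. Of 18 hypoxia genes, 10 were higher and 1 lower (median 1.10). *Hilpda*, which encodes a lipid droplet protein, was 6.53, 12.01 and 11.18 (25.1-fold) and *Bnip3*, a mitophagy gene, 9.32, 12.44 and 11.33. Each of the 11 called hypoxia genes had its highest value in pTAMs. *Acod1*, which makes itaconate from an intermediate of the tricarboxylic acid cycle, was 7.19, 11.63 and 12.87 (51.3-fold). It was the only one of 21 genes of that list to be higher, and 4 were lower, or 1 after cyclic loess normalization.

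Transcription factors of the myeloid lineage were higher for 11 of 31 and lower for 1 (median 0.69). *Cebpb*, which drives emergency granulopoiesis and inflammatory genes, was 10.94 in BMDM, 13.11 in pTAMs and 13.67 in mTAMs (6.63-fold). *Cebpd* was 9.45, 9.83 and 12.34, but its other probe set gave 0.22 in place of 2.89. *Irf1*, an interferon response factor gene, was 9.05, 11.38 and 11.62 (5.94-fold) and *Bhlhe40* 6.89, 10.69 and 10.40 (11.4-fold). The lineage factor gene *Spi1* was 10.52, 10.70 and 11.49, and *Irf8* 9.95, 10.88 and 9.82. *Maf*, which restrains self-renewal of macrophages, was the lower one (11.65, 11.33 and 10.28, with -2.68 to -0.43 from its other probe sets).

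Matrix proteases and inhibitors were higher for 12 of 22 and lower for 3 (median 1.23). *Mmp9*, a gelatinase gene of neutrophils and macrophages, was 5.41, 10.82 and 12.21 (111-fold), *Adam19* 6.14, 7.51 and 11.36 (37.3-fold) and *Mmp14*, a membrane-bound member, 5.85, 10.09 and 8.99. The lower ones were *Plau*, the urokinase gene (13.03, 11.14 and 10.33, 6.5-fold), *Adam8* (12.87, 12.28 and 11.83) and *Mmp12*, the macrophage elastase (10.69, 11.91 and 9.55, 2.20-fold), with 1 of the 3 lower after cyclic loess normalization. The plasminogen system divided, since the urokinase receptor gene *Plaur* (9.89, 11.28 and 11.05) and the inhibitor gene *Serpinb2* (4.31, 7 and 9.02) were higher.

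Genes of cell division were lower almost throughout. Of 27 DNA replication genes, 26 were lower in mTAMs (median -1.75), and of 26 mitosis genes, 25 were (median -2.04). None was higher. *Uhrf1*, which maintains DNA methylation at the replication fork, was 10.74 in BMDM, 8.68 in pTAMs and 8.13 in mTAMs (6.11-fold), *Tk1*, a thymidine kinase gene, 10.52, 8.28 and 7.99 (5.78-fold), and *Pcna*, the sliding clamp, 13.34, 11.89 and 11.76 (2.99-fold). Of the mitotic kinase genes, *Cdk1* was 10.81, 8.57 and 8.32 and *Ttk* 8.72, 6.44 and 6.20. The exceptions were *Mcm4*, a helicase subunit gene (10.55, 9.84 and 9.75), and *Cks2*, a CDK-binding protein gene (11.12, 9.59 and 10.77). All of these genes stayed above the floor in mTAMs. The counts were 26 and 24 after cyclic loess normalization, and 18 and 22 at 3-fold.

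Regulators of the G1 phase were lower for 13 of 23 and higher for 3 (median -1.37). *Ccne2*, a cyclin gene of S phase entry, was 9.45, 6.58 and 6.41 (8.22-fold), *Ccnd1* 12.40, 10.92 and 9.78 (6.15-fold), and the E2F genes *E2f1* (8.85, 7.13 and 7.05, with -0.94 and 0 from its other probe sets) and *E2f7* (8.36, 6.06 and 6.10) were lower. The higher genes were *Cdkn1b*, which encodes the CDK inhibitor p27 (8.35, 10.07 and 11.52, 9-fold, with 3.06 from its other probe set), *Cdkn2d*, which encodes the inhibitor p19 (10.23, 9.21 and 11.33), and *Ccnd2* (8.04, 10.14 and 9.16). Inhibitors were not higher as a class, since *Cdkn2c* was lower (10.58, 8.89 and 8.42) and *Cdkn1a* within 2-fold (11.31, 11.34 and 10.93).

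In genes of protein synthesis and of mitochondria the differences were smaller and nearly all negative, and most did not pass 2-fold. Of 76 mitochondrial ribosomal proteins, 35 were lower and none higher (median -0.98), and 74 had a negative difference. *Mrpl46* was 9.28 in BMDM, 8.22 in pTAMs and 7.58 in mTAMs (3.25-fold). *Mrps10* was 9.90, 9.06 and 8.21, but -0.24 from its other probe set in place of -1.69. All 19 aminoacyl-tRNA synthetases, which charge tRNAs, had a negative difference and 8 were lower (median -0.99), led by *Iars* (10.48, 9.45 and 8.52, 3.89-fold). All 19 ribosome biogenesis genes (4 lower, median -0.78), all 34 proteasome subunits (6 lower, median -0.78) and all 27 genes of respiratory chain complexes II to IV (2 lower, median -0.53) had a negative difference too, as did 32 of 34 complex I genes (5 lower, median -0.64), with *Ndufa5* at 9.80, 9.32 and 8.12. Of complex I and complexes II to IV, 5 of 34 and 2 of 27 are shares near or under the 14.4% of all genes. For proteasome subunits, 6 of 34 is near that share too. These medians lie within 1 log2 unit of the -0.11 of all genes, and the calls depended on the scaling. After cyclic loess normalization 21 mitochondrial ribosomal proteins, 6 synthetases, 1 proteasome subunit and 2 complex I genes were lower, with medians of -0.78, -0.75, -0.54 and -0.39.

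**Figure D4:**
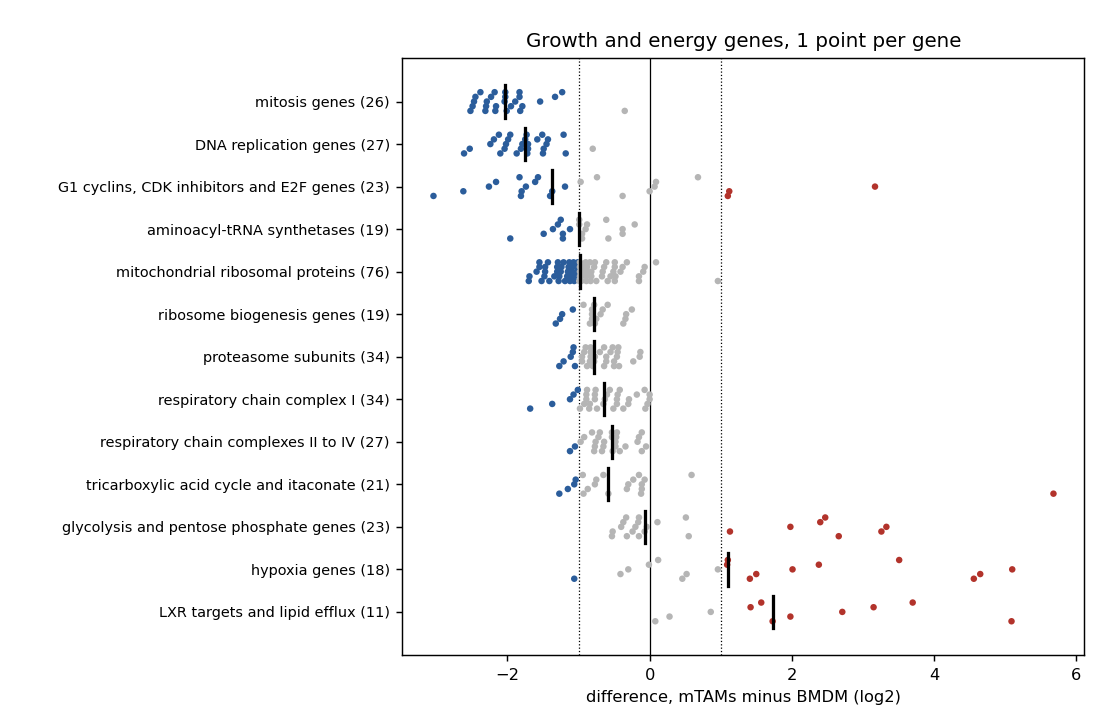
Difference, mTAMs minus BMDM (log2, horizontal axis), of every compared gene of 13 lists (vertical axis, with the number of genes in parentheses). Each point is 1 gene, blue at or below -1 and red at or above 1, black bars are medians, and dotted lines mark 2-fold. The mitosis genes cluster about -2.04 and the mitochondrial ribosomal proteins about -0.98, while *Acod1* stands at 5.68 in an otherwise low list.

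Antioxidant and amino acid stress genes differed in both directions. Of 19 NRF2 targets and antioxidant genes, 10 were lower and 3 higher (median -1.15, or -0.94 after cyclic loess normalization). *Akr1b8*, an aldo-keto reductase gene, was 11.51 in BMDM, 7.5 in pTAMs and 7.10 in mTAMs, *Nqo1*, a quinone reductase gene, 8.18, 4.65 and 5.40 (6.87-fold), and *Gclc*, the catalytic subunit gene of glutathione synthesis, 10.10, 8.21 and 8.04 (4.17-fold). *Hmox1*, which encodes heme oxygenase 1 (9.02, 10.03 and 10.24, 2.33-fold), and *Slc7a11*, the cystine transporter gene (5.22, 9.08 and 7.55, at least 4.76-fold), were higher, and *Nfe2l2*, which encodes NRF2 itself, was within 2-fold (10.60, 10.30 and 11.27), but its other probe set gave 3.27. Of 17 ATF4 targets and serine synthesis genes, 7 were lower and 3 higher (median -0.59). The amino acid enzymes *Mthfd2* (10.24, 8.61 and 7.44, 6.96-fold), *Asns* (10.34, 8.66 and 8.35, 3.97-fold) and *Psat1* (10.04, 9.06 and 8.27, 3.41-fold) were lower, whereas *Ddit3*, which encodes the stress factor CHOP, was higher (8.47, 9.55 and 11.06, 6.02-fold). The unfolded protein response list had 2 of 19 higher and 1 lower, with *Hspa5*, its main chaperone gene, at 12.66, 12.38 and 12.64. Both counts are shares near or under the 11.5% and 14.4% of all genes.

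Genes of clearance differed in both directions. Of 25 scavenger receptor and efferocytosis genes, 6 were higher and 10 lower (median -0.16, or 0.00 after cyclic loess normalization). *Colec12*, a collectin receptor gene, was 11.02 in BMDM, 8.92 in pTAMs and 7.94 in mTAMs (8.46-fold), and *Cd5l*, which encodes a secreted apoptosis inhibitor of macrophages, 11.60, 4.87 and 8.11 (11.2-fold). *Gas6*, which bridges dead cells to the receptors Axl and Mertk, was 10.97, 8.55 and 7.84, but -0.91 from its other probe set in place of -3.13. The receptors themselves were higher, with *Axl* at 8.11, 10.70 and 10.51 (5.28-fold) and *Mertk* at 8.18, 9.31 and 9.20 (2.03-fold). *Olr1*, a receptor gene for oxidized lipoprotein, was 4.81, 6.66 and 9.33 (at least 16.3-fold). With the probe sets used, the ligand was lower and its receptors higher, but the other *Gas6* probe set did not pass 2-fold and *Mertk* passed it narrowly.

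Of 21 iron and heme genes, 4 were higher and 3 lower, the latter a share near the 14.4% of all genes. *Tfrc*, the transferrin receptor gene, was 12.36 in BMDM, 8.73 in pTAMs and 8.2 in mTAMs, with -1.78 and -1.77 from its other probe sets in place of -4.16. *Slc48a1*, a heme transporter gene of the phagosome, was 10.60, 8.02 and 8.34 (4.79-fold lower). *Slc40a1*, which encodes the exporter ferroportin, was 9.91, 8.45 and 11.64 (3.32-fold higher), and the storage gene *Fth1* was 14.29, 14.16 and 14.17. Of 36 lysosomal genes, 4 were higher and 4 lower, shares near or under the 11.5% and 14.4% of all genes. *Ctsk* (7.53, 5.70 and 9.95, 5.35-fold) and *Acp5* (6.22, 9.75 and 10.36, 17.6-fold), which osteoclasts use to resorb bone, were higher, as were *Ctsh* and *Ctse* (2.29, but -0.71 from its other probe set), and *Gpnmb*, a lysosomal glycoprotein gene, was lower (13.16, 6.54 and 10.80, 5.13-fold).

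**Figure D5:**
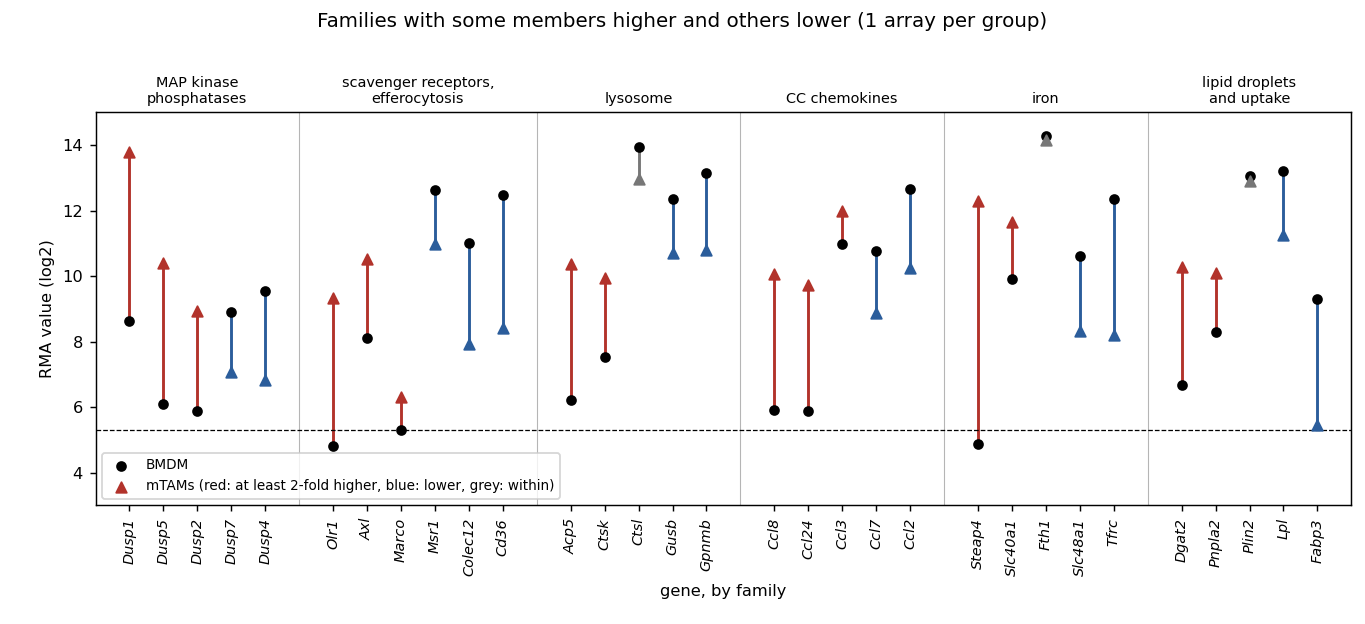
RMA values (log2, vertical axis) in BMDM (black circles) and mTAMs (triangles) of genes from 6 families (horizontal axis), 1 array per group, with a line joining the values of a gene and the floor of 5.3 dashed. The genes were picked from each family to show some higher in mTAMs (red) and others lower (blue), as *Slc40a1* (9.91 to 11.64) and *Tfrc* (12.36 to 8.2) among iron genes. Over the whole lysosomal, iron and lipid uptake lists, the shares lower were near or under the 14.4% of all compared genes.

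Among the 40 largest decreases were genes of adhesion and the membrane. *Pmp22*, a membrane protein gene of myelin and other cells, was 12.41 in BMDM, 8.18 in pTAMs and 7.93 in mTAMs (22.3-fold), *Itga8*, an integrin gene, 9.83, 5.79 and 5.56, and *Pcdh7*, a protocadherin gene, 9.37, 2.74 and 2.63 (at least 16.8-fold). *Npy*, a neuropeptide gene, was 9.80, 5.56 and 5.67 (17.5-fold). *Cdk14* (11.41, 8.37 and 7.58) and *Cdk18* (9.42, 5.79 and 5.57), kinase genes outside the core cell cycle, were lower as well. In each of these genes the pTAM value lay closer to mTAMs than to BMDM.

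Interferon genes did not form a common direction. Of 24 interferon-stimulated genes, 2 were higher and 6 lower (median -0.56, or -0.33 with 3 higher and 4 lower after cyclic loess normalization). As a share, 2 of 24 is under the 11.5% of all genes. The higher genes were *Gbp2* (7.72, 11.20 and 11.14, 10.7-fold) and *Gbp3* (7.25, 10.76 and 10.45), guanylate-binding proteins that respond to interferon-γ. Those lower included *Usp18*, which restrains the type I receptor (10.34, 9.08 and 8.76, 2.99-fold), and *Xaf1* (10.80, 10.27 and 9.49). *Mx1*, an antiviral GTPase gene of the type I response, was 8.32, 9.06 and 7.60. Within the transmembrane and Schlafen genes, 6 of 12 were higher and 1 lower, with *Ifitm1* at 9.78, 13.21 and 13.84 (16.7-fold), *Slfn1* at 5.66, 9.69 and 10.78 (34.8-fold) and *Slfn9* at 9.08, 7.31 and 7.21. These are families of close copies, in which probe sets may share targets.

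The only technical spread that the arrays hold is that between probe sets of the same gene, which had an SD of 0.52 for this difference over 5388 genes. Variation from mice, sorting and hybridisation is not part of it. Of the 1368 higher genes, 603 had another probe set above the floor, and its median difference was at least 2-fold in 72.3% and of the same sign in 95.4%. Of the 1715 lower genes, 863 had one, and the shares were 53% and 95.7%. Direction therefore held between probe sets more often than size. Among genes named above, other probe sets gave smaller differences for *Abcg1* (1.52 in place of 2.71), *Kit* (1.98 in place of 4.83), *Lyve1* (2.03 in place of 4.11), *Cdk14* (-2.63 and -1.81 in place of -3.83), *Pcdh7* (-3.67 in place of -6.74) and *Ttk* (-1.08 in place of -2.52). They gave larger ones for *Cxcl13* (4.97 in place of 2.85), *Ddit3* (3.99 in place of 2.59), *Vegfa* (3.31 in place of 1.41), *Ccr1* (5.41 in place of 4.08) and *Gpnmb* (-3.57 in place of -2.36).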

How the data were processed

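Total RNA of macrophages was hybridised to 3 Affymetrix mouse arrays, 1 each for BMDM, pTAMs and mTAMs. The authors deposited log2 values normalized by RMA, which corrects background, quantile-normalizes the arrays and summarises each probe set. The sources used here do not give its version. Array medians were 5.36, 5.43 and 5.43, and 3 arrays limit the precision. Of 45037 probe sets, 34945 had 1 gene symbol in the platform annotation, 932 several and 9160 none, and only the first were used. Symbols were checked by gene ID in RefSeq (34741 matched, 0 updated), and promoters came from RefSeq on GRCm38.p6. For genes with several probe sets, the one with the greatest average of the 3 arrays was kept, and genes above 5.3 on the BMDM or mTAM array were compared by subtraction. Named were the 40 largest differences in each direction, computed with values raised to the floor, and members of 76 lists (16 of cell type markers); genes named otherwise are described as chosen after their values were seen. Members and lists were chosen with earlier results of these data known. Calculations used Python 3.11.15, numpy 2.4.6, pandas 2.3.3 and matplotlib 3.10.9, with cyclic loess from limma 3.58.1 in R 4.3.3. The scripts were tested on simulated data. Alternatives were other scalings, probe set rules, floors and a 3-fold threshold. Of the list names, 107 had no probe set of 1 symbol. The sources do not say whether a Ly6C gate was applied to the arrayed cells.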

Additional observations from a re-analysis of the deposited data

How the results depend on the processing

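With 1 array per group, no replicate could be left out. No paired analysis was possible because each group has 1 array and the groups share only the number 1. Raising the threshold to 3-fold left 862 genes higher and 575 lower, which turned the majority of calls from lower to higher. Under the other settings the higher genes numbered 1226 to 1586 and the lower 1199 to 1972. Of the called genes, 39.6% were higher with median-centered arrays, 45.5% with a repeated quantile normalization and 56.9% with cyclic loess, against 44.4%. Of 684 list medians recomputed, 44 moved by more than 0.52, the SD between probe sets. Cyclic loess changed the sign of the medians of the general macrophage (-0.13 to 0.14), glycolysis (-0.07 to 0.19), BCL2 (-0.11 to 0.10), MAP kinase phosphatase (-0.08 to 0.01), S100 (-0.24 to 0.02), iron (-0.21 to 0.01), lipid uptake (-0.21 to 0.04) and lysosomal (-0.10 to 0.06) lists, so these have no settled direction. Signal near the floor limits the folds of 367 higher and 143 lower genes.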

Other observations

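Some genes that lie next to each other on a chromosome differed in the same direction, and the examples were chosen after their values were seen. Neighbours among the compared genes were taken from the RefSeq gene order on GRCm38.p6. Runs of at least 4 such genes numbered 12 for higher and 14 for lower genes, and how many arise without any relation between neighbours was not tested. The longest was of 6 lower genes on chromosome 13, from *Serpinb6a* to *Psmg4*, with a smallest difference of 1.02 in size. The 5 genes *Il1r2*, *Il1r1*, *Il1rl2*, *Il18r1* and *Il18rap* of chromosome 1, all receptor chains of the IL-1 family, were each at least 2-fold higher in mTAMs, with a smallest difference of 1.12. *Il18rap*, the accessory chain of the IL-18 receptor, was 6.72 in BMDM, 8.36 in pTAMs and 10.31 in mTAMs (12-fold). A run of 5 on chromosome 3 held the nucleotide receptor genes *P2ry14*, *P2ry13* and *P2ry12*, and *P2ry13* was 6.48, 8.64 and 9.91 (10.8-fold). Guanylate-binding protein genes formed a run of 4 with a smallest difference of 3.20. *Gbp2b* was 7.18, 11.23 and 11.04 (14.5-fold), though members of this family are alike in sequence.

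Other families held a few members that differed. Among BCL2 family and death genes, 6 of 16 were higher and 1 lower, and both sides of the balance were represented: *Pmaip1*, which encodes the death-promoting NOXA, was 7.61, 10.69 and 11.97 (20.5-fold), and *Mcl1*, a survival gene, 11.59, 12.35 and 12.80 (2.31-fold, with differences of 0.58 to 2.20 from its other probe sets). The chitinase-like and resistin-like genes *Chil3* (5.02, 11.20 and 13.50, at least 294-fold), *Chil1* (5.62, 8.31 and 11.69) and *Retnla* (5.97, 10.35 and 11.24, 38.6-fold) were higher, and *Rnase4* was lower (12, 11.50 and 10.66). S100 genes were split, with the neutrophil gene *S100a8* at 8.76, 13.47 and 14.20 (43.4-fold) and *S100a4*, a motility gene, at 13.73, 12.02 and 11.44 (4.89-fold lower). Of 25 integrin, selectin and adhesion genes, 8 were higher and 2 lower, or 7 and 2 with values raised to the floor. *Selp*, which encodes P-selectin, was 4.00, 7.77 and 9.72, and *Vcam1* 4.92, 9.53 and 9.40 (at least 17.1-fold, with differences of 1.45 and 2.76 from its other probe sets in place of 4.48). Of the 8 compared endothelial markers, 1 was higher and 1 lower, shares near the 11.5% and 14.4% of all genes.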
